A study of Mus musculus with 18 samples.

Results

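The DNA replication genes described here are the 47 genes with an m6A peak whose symbols name the machinery that copies DNA. They were chosen by symbol alone, as Mcm, Orc, Gins, Rfc and Rpa genes, subunits of DNA polymerases alpha, delta and epsilon, and 13 single genes such as Cdc6, Pcna, Lig1 and Top2a. The symbols matched 50 genes, of which Cdt1, Gins2 and Rfc3 had no peak in any list. The 47 genes are among 12634 genes with a peak, and they carry 824 of 338246 peaks.

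Before a cell divides, the origin recognition complex marks where copying starts, and Cdc6 and Cdt1 load the Mcm2 to Mcm7 ring onto DNA there. The kinase Cdc7 with its partner Dbf4, together with Cdc45 and the GINS complex, turns the ring into a working helicase. Polymerases, the sliding clamp Pcna with its loader, the single-strand binding protein RPA, the nuclease Fen1, the ligase Lig1 and the topoisomerases then copy, join and untangle the strands. Many of these genes are transcribed under E2F factors when cells enter S phase. Growth-arrested 3T3-L1 preadipocytes divide again after induction, in a phase called mitotic clonal expansion, before they turn into adipocytes. N6-methyladenosine (m6A) is a methyl group added to some adenosines of messenger RNA, and the enzyme Fto can take it off.

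The series used 3T3-L1, a preadipocyte line from mouse embryo fibroblasts, which can be turned into adipocytes in culture. Fragmented poly(A) RNA was bound by an m6A antibody (IP) and sequenced beside unbound input, and the authors listed peaks of IP over input. The 18 samples gave 9 peak lists, 1 each from days -2, 0, 2, 5 and 10 of adipogenesis without knockdown, 2 from control cells (siCtrl) and 2 from cells with Fto knocked down (siFTO). All lists come from this 1 cell line, and the labels used here give no time point for the siRNA cells and do not say whether replicates were separate cultures.

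The lists held between 26485 peaks (day -2) and 44529 peaks (day 10), and read depth is unknown because no read counts per peak were used. Fto itself had 6 and 6 siCtrl peaks and 5 and 4 siFTO peaks, which does not measure its RNA level. All 8 preadipocyte and fibroblast markers had a peak in every siRNA list, summing to 121 and 120 peaks for siCtrl and 85 and 72 for siFTO, and of the 8 adipocyte markers 3 had one on day 0 and 6 on day 10. Skeletal muscle markers had none in any list, and macrophage and endothelial markers had at most 1 peak in a list. A peak can be called only where the RNA is present, so more RNA of a gene and more methylation of it cannot be told apart from these lists. The same holds for a larger number of dividing cells.

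In siFTO cells the replication genes carried more m6A peaks than in siCtrl cells. siCtrl 1 and 2 held 65 and 71 such peaks, and siFTO 1 and 2 held 166 and 131, a ratio of means of 2.18. The siFTO values were both above the siCtrl values, although the siFTO 2 list was shorter than either siCtrl list. Over all genes the same ratio was 0.942. As a share of a list, the replication genes made up 0.181% ± 0.000546 (SD, n = 2) of peaks in siCtrl and 0.420% ± 0.00101 in siFTO. Counting error was wider than these SDs. The exact 95% intervals were 0.139 to 0.230 and 0.142 to 0.229 for siCtrl 1 and 2. For siFTO 1 and 2 they were 0.359 to 0.489 and 0.351 to 0.497. Day -2 came next with 80 peaks, 0.302% of its list (exact Clopper-Pearson 95% interval 0.240 to 0.376), and day 0 was lowest with 51 peaks, 0.136% (0.101 to 0.179). Days 2, 5 and 10 had 81, 90 and 89 peaks, or 0.203%, 0.204% and 0.200%. These 3 neighbours in the order lie within each other's intervals, which cover counting error only. When each list was held to its 26485 highest folds, the siFTO shares were 0.423% and 0.412% and the siCtrl shares 0.136% and 0.125%.

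**Figure D1:**
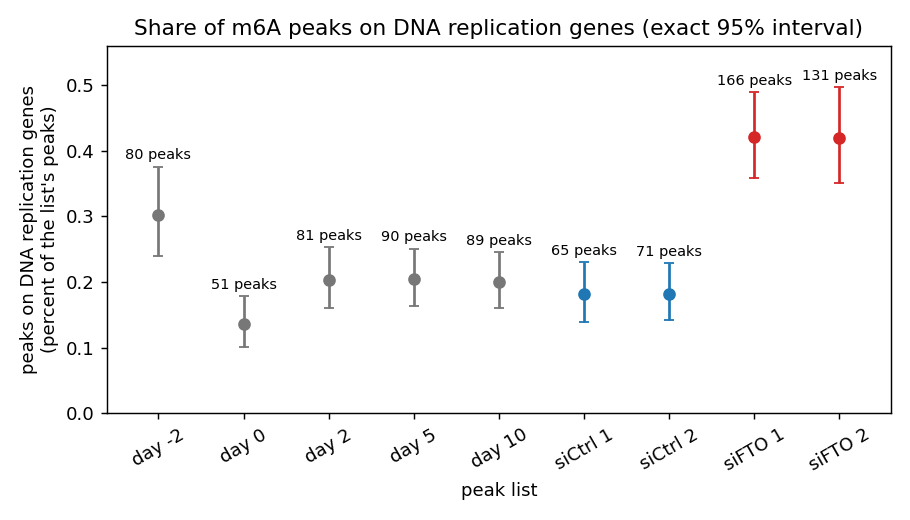
The plot gives, for each of the 9 peak lists, the percent of its peaks that lie on DNA replication genes, with the exact 95% interval as a bar and the number of such peaks above it (grey stages, blue siCtrl, red siFTO). The siFTO lists, at 0.421% and 0.419%, lie above the other 7, and day 0 is the lowest at 0.136%.

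Gene by gene, 25 of the 45 replication genes with a peak in the siRNA lists had more peaks in siFTO, meaning that each siFTO list was above each siCtrl list. That is 55.6%, against 21.6% of all genes. Fewer peaks in both siFTO lists were found on 1 gene, Gins4, or 2.22% against 24.1% of all genes. A gain, with a peak in each siFTO list and none in siCtrl, was found on 8 genes (17.8% against 8.64%): Cdc45, Cdc6, Mcm10, Mcm5, Mcm8, Orc1, Orc3 and Orc4. On Mcm5 and Orc3 no peak of siFTO 1 overlapped a peak of siFTO 2, so these gains hold by gene and not by position. A loss, the reverse, was found on 0 genes (4.35% of all genes). The median difference in peak number, siFTO minus siCtrl, was 1 over these 45 genes and 0 over all 11482 genes tested. For each of the 26 separated genes the two-sided exact permutation p was 0.333, the smallest that 2 lists against 2 allow. No gene could therefore pass a threshold, and the counts are read only against the share of all genes. Among peaks at or above their list's median fold, 16 of 33 genes had more peaks (background 22.8%), and 15 of these were among the 25. With equal list lengths 26 of 41 had more (background 24.7%), of which 20 were among the 25. Cdc6, Mcm3, Mcm5, Mcm7 and Rpa1 then lost the call, and Fen1, Mcm2, Mcm6, Pole3, Rrm1 and Top1 gained it. Without siFTO replicate 2 the gained genes were 13 (background 16.2%). Without siCtrl replicate 1 the lost genes were 2 (background 5.77%) and the genes with fewer peaks 4 (background 31.4%). Genes with fewer peaks were 2 without siCtrl replicate 2 (background 26.8%) and 3 without siFTO replicate 1 (background 38.9%).

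**Figure D2:**
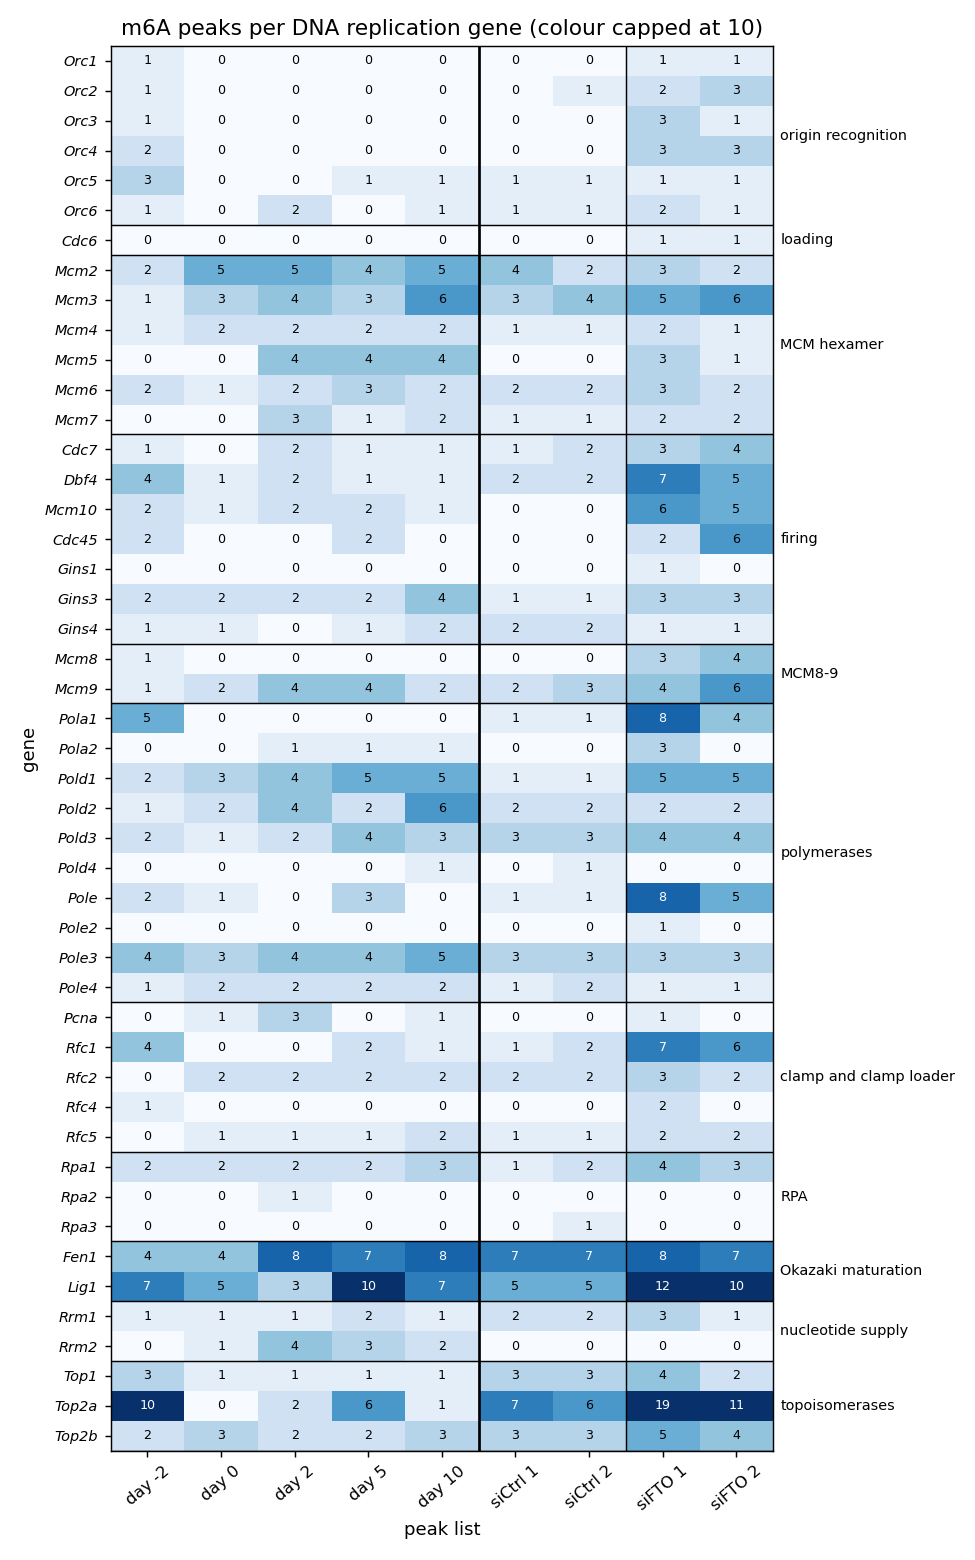
Each cell gives the number of m6A peaks on 1 gene (rows, grouped by role) in 1 peak list (columns), and darker blue stands for more peaks, with the colour capped at 10. The siFTO columns are darker than the siCtrl columns for most genes, as for Mcm10 with 6 and 5 peaks against none, while the day 0 column is pale.

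In the accounts of single genes that follow, 2 values before "against" are siCtrl 1 and 2, and the 2 after it are siFTO 1 and 2. The origin recognition complex showed the contrast in its plainest form, with 2 and 3 siCtrl peaks, 12 and 10 siFTO peaks, 9 on day -2 and 0 on day 0. Orc4 (ENSMUSG00000026761), a subunit of the ring that binds origin DNA, had 0 and 0 siCtrl peaks, 3 and 3 siFTO peaks, 2 on day -2 and none from day 0 to day 10. Orc3 had 3 and 1 peaks in siFTO, 1 on day -2 and none elsewhere, and Orc1, the ATPase subunit, had 1 in each of these lists and none elsewhere. None of the Orc3 peaks overlapped another, and the day -2 peak of Orc1 lay apart from its siFTO peaks. Orc2 had 0 and 1 peaks against 2 and 3, 1 on day -2 and none on later days. Orc5 had 1 peak in each of the 4 siRNA lists and had 3 peaks on day -2. Orc6 had 1 and 1 siCtrl peaks and 2 and 1 siFTO peaks. Cdc6, which joins the complex to load the helicase, had a single coding peak in each siFTO list and none in the other 7 lists. Its folds of 2.77 and 2.07 lay at percentiles 31.2 and 16.9 of their lists.

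In the Mcm2 to Mcm7 ring, the core of the helicase, 3 of the 6 subunits had more peaks in siFTO, and which ones depended on list length. Mcm3 (ENSMUSG00000041859) had 3 and 4 siCtrl peaks and 5 and 6 siFTO peaks, Mcm7 had 1 and 1 against 2 and 2, and Mcm5 had 0 and 0 against 3 and 1. The other subunits had overlapping lists, among them Mcm2 with 4 and 2 siCtrl peaks and 3 and 2 siFTO peaks. With equal list lengths Mcm3, Mcm5 and Mcm7 lost the call and Mcm2 and Mcm6 gained it, and with peaks that reached the median fold the first 3 lost it as well. Mcm5 had no peak on days -2 and 0 and 4 on each of days 2, 5 and 10. Its highest siFTO 2 fold was 1.23, at percentile 0.893 of the list, so its presence there rests on a peak near the bottom of the list. Mcm8 and Mcm9 form a related helicase known mainly from recombination repair. Mcm8 (ENSMUSG00000027353) had 3 and 4 peaks in siFTO, 1 on day -2 and none in the other 6 lists. Mcm9 had 2 and 3 siCtrl peaks and 4 and 6 siFTO peaks.

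Genes that fire the loaded helicase had 6 and 7 siCtrl peaks and 23 and 24 siFTO peaks. Mcm10 (ENSMUSG00000026669), needed for the helicase to start moving, had 0 and 0 siCtrl peaks and 6 and 5 siFTO peaks, with 2, 1, 2, 2 and 1 on days -2, 0, 2, 5 and 10. Dbf4 (ENSMUSG00000002297), the activating subunit of the Cdc7 kinase, had 2 and 2 peaks against 7 and 5, and Cdc7 itself 1 and 2 against 3 and 4. Cdc45 had 0 and 0 peaks against 2 and 6, the widest spread between the siFTO lists of this group. Gins3 had 1 and 1 against 3 and 3, whereas Gins4 had 2 and 2 against 1 and 1. Gins1 had 1 peak in siFTO 1 and none elsewhere.

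Among the polymerases the large catalytic subunits differed between the groups, and several small accessory subunits did not. Pole (ENSMUSG00000007080), the catalytic subunit of the leading-strand polymerase epsilon, had 1 and 1 siCtrl peaks and 8 and 5 siFTO peaks. Pola1, the catalytic subunit of the polymerase alpha that starts each strand, had 1 and 1 against 8 and 4, and it had 5 peaks on day -2 and none from day 0 to day 10. Pold1, the catalytic subunit of polymerase delta, had 1 and 1 against 5 and 5, with 2, 3, 4, 5 and 5 on the stages in order. Pold3 had 3 and 3 against 4 and 4. Pold2 had 2 peaks in all 4 siRNA lists and Pole3 had 3 in all 4, while Pole4 had 1 and 2 against 1 and 1. Pola2 had 3 peaks in siFTO 1 and none in siFTO 2, Pole2 had 1 in siFTO 1 alone, and Pold4 had 1 in siCtrl 2 and 1 on day 10. Longer genes offer more sequence for peaks. The 25 genes with more peaks in siFTO had a median RefSeq length of 31.5 kb (7.53 to 328), and the other 22 genes 13.6 kb (1.22 to 76.9). The part of length in the counts was not tested.

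Rfc1, the large subunit of the clamp loader, had 1 and 2 siCtrl peaks and 7 and 6 siFTO peaks, and 4, 0, 0, 2 and 1 on the stages. Rfc5 had 1 and 1 against 2 and 2, and Rfc2 2 and 2 against 3 and 2. Rfc4 had 2 peaks in siFTO 1, 1 on day -2 and none elsewhere. The clamp Pcna had 1 peak in siFTO 1 and none in the other siRNA lists or on days -2 and 5, with 1, 3 and 1 on days 0, 2 and 10. The peaks of siFTO 1, day 0 and day 10, and 1 of the 3 on day 2, were listed as 5' UTR but lay before the RefSeq start. Rpa1, the large subunit of RPA, had 1 and 2 against 4 and 3. Rpa2 had 1 peak on day 2 alone, and Rpa3 had 1 in siCtrl 2 alone.

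Lig1 (ENSMUSG00000056394), the ligase that seals Okazaki fragments, had 5 and 5 siCtrl peaks and 12 and 10 siFTO peaks. Its stage values were 7, 5, 3, 10 and 7. Fen1, the nuclease that trims those fragments, had 7 and 7 against 8 and 7, with 4 on days -2 and 0 and 7 to 8 on later days. Top2a (ENSMUSG00000020914), the topoisomerase of dividing cells, had 7 and 6 siCtrl peaks and 19 and 11 siFTO peaks, and 10, 0, 2, 6 and 1 on the stages. The 19 peaks in siFTO 1 were the most on any of the 47 genes in any of the 9 lists. Top2b, its relative in non-dividing cells, had 3 and 3 against 5 and 4, and Top1 had 3 and 3 against 4 and 2. The subunits of ribonucleotide reductase, which makes deoxynucleotides, did not separate with whole lists. Rrm1 had 2 and 2 against 3 and 1, and was called for more peaks with equal list lengths, and Rrm2 had none in any siRNA list.

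**Figure D3:**
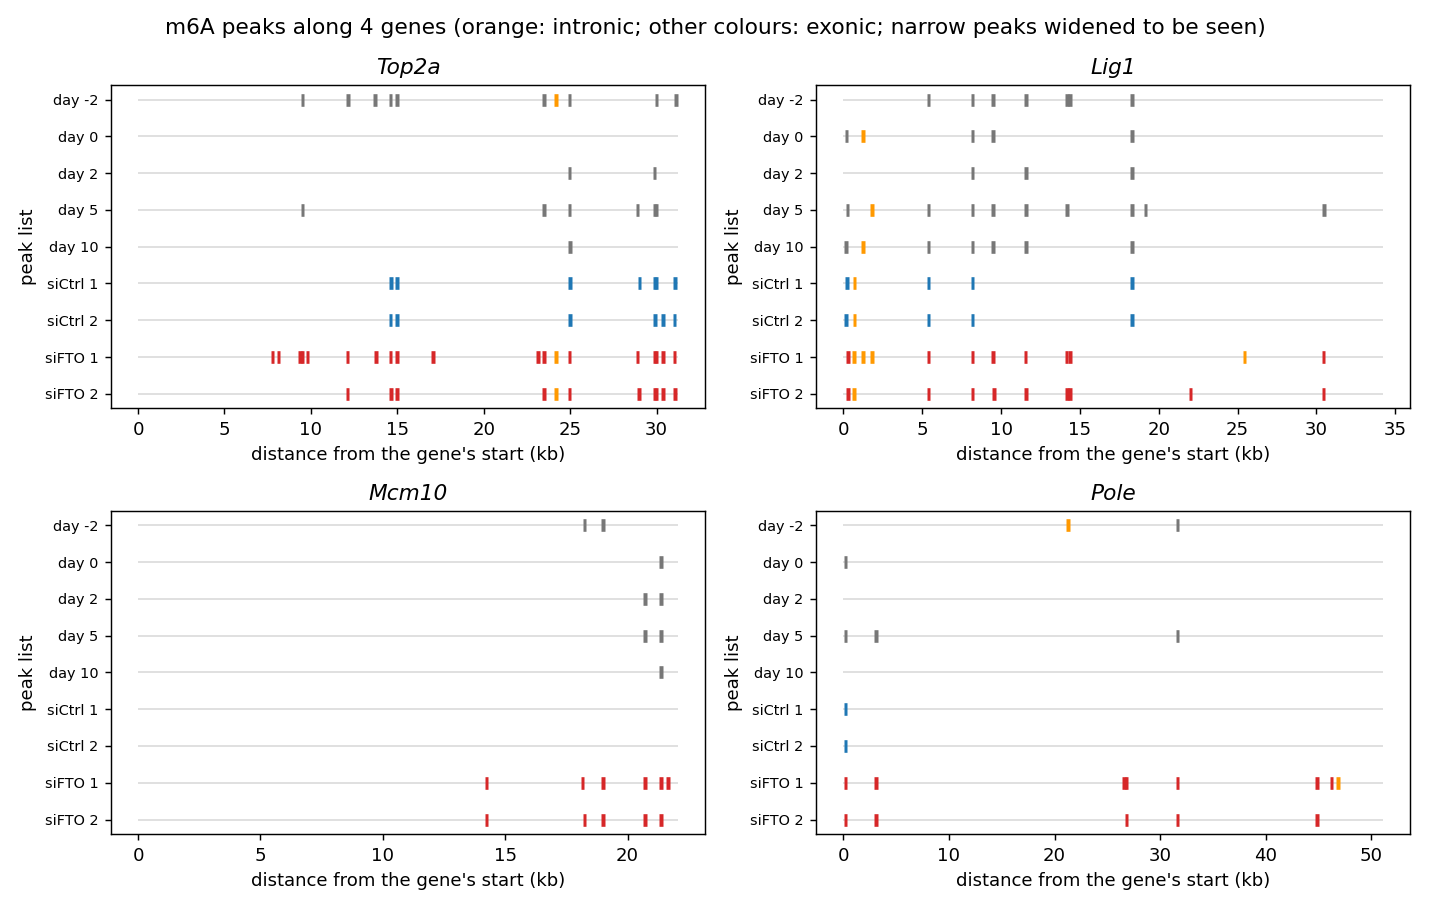
Horizontal position is the distance in kb from the RefSeq start of Top2a, Lig1, Mcm10 and Pole, and each mark is 1 peak in 1 of the 9 lists, narrow peaks widened (orange intronic, other colours exonic; grey stages, blue siCtrl, red siFTO). Mcm10 has no mark in siCtrl and 6 and 5 in siFTO, and Top2a has none on day 0.

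Merged across the 9 lists wherever they shared at least 1 base, the peaks of the replication genes formed 235 regions. Of the 186 regions present in the siRNA lists, 52 were gained, present in siFTO 1 and 2 and absent from siCtrl 1 and 2 (28%, against 12.3% of all regions), on 25 genes. The reverse, a lost region, held for 7 (3.76% against 14.6%). Coding sequence held 45 of the 52 gained regions, or 86.5%, where 59.1% of gained regions of all genes were coding. Lig1 and Mcm10 had 5 gained regions each and Pole had 4. Folds of the gained regions spanned their lists, with a median percentile of 52 (2.80 to 99.6) in siFTO 1 and 46.9 (0.419 to 99.3) in siFTO 2. With only the peaks that reached their list's median fold, 33 regions were gained (background 15%). Without siFTO replicate 2 the number was 101 (background 31.9%), and with regions also present on day -2 left out it was 30 of 129 (background 12.1%).

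The gained regions with the best fold rank lay on Mcm8 and Orc4. A coding region of Mcm8 at chromosome 2, 132843451 to 132843575 (mm10), near the end of the gene, had folds of 92.98 and 83.69 in siFTO, percentiles 99.6 and 99.3, and no peak in the other 7 lists. An Mcm8 intronic region at chromosome 2, 132817926 to 132818075, had folds of 23.84 and 31.04. Orc4 had an intronic region at chromosome 2, 48923726 to 48923850, with folds of 46.89 and 27.11. Its coding region at chromosome 2, 48917276 to 48917350, had folds of 56.16 and 44.4, and of 73.78 on day -2. Folds are the authors' values per peak and are compared here only by rank within a list.

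Of the 7 lost regions, 5 lay in 5' UTRs (71.4%, against 21.3% of all lost regions), on Fen1, Gins4, Mcm6, Orc6 and Top2b. The others were a coding region of Lig1 and an intronic region of Rfc5 at chromosome 5, 117380151 to 117380300, with folds of 4.15 and 3.83 in siCtrl. The Mcm6 region at chromosome 1, 128359476 to 128359675, was in all 7 lists outside siFTO, with folds of 2.96 and 2.64 in siCtrl. The Orc6 region at chromosome 8, 85299651 to 85299775, had folds of 2.63 and 2.65 in siCtrl. The Fen1 region at chromosome 19, 10203726 to 10203925, had folds of 2.11 and 2.26, so these 3 lost 5' UTR regions ranked at percentile 40.8 of siCtrl 1 or lower. With peaks that reached the median fold, 4 of 92 regions were lost (17.2% of all regions), and with equal list lengths 4 of 141 were (13.1%).

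By transcript part, the extra siFTO peaks of the replication genes were in coding sequence, introns and 3' UTRs, and their 5' UTR peaks were fewer. Coding peaks numbered 43 and 47 in siCtrl and 124 and 101 in siFTO, a ratio of means of 2.50, where coding peaks of all genes gave 0.918. Intronic peaks numbered 3 and 5 against 21 and 13, a ratio of 4.25, and those of all genes were also higher in both siFTO lists, with a ratio of 1.53. Peaks in 3' UTRs numbered 9 and 10 against 16 and 14, a ratio of 1.58, beside 1.04 over all genes. Peaks in 5' UTRs numbered 10 and 9 against 5 and 3, a ratio of 0.421, close to the 0.378 of all genes. In each of these 4 parts the siFTO values did not overlap the siCtrl values. Of their peaks, 74.7% (95% interval 67.4 to 81.1) and 77.1% (68.9 to 84.0) were coding in the siFTO lists, and 60.6% and 62.9% of all peaks were. Intronic shares of 12.7% and 9.92% lay below the 19.5% and 17.1% of all peaks there. On day -2, 75.0% of their peaks were coding and 2.50% in 5' UTRs, beside 61.1% and 5.9% of all peaks of that list. Day 0 had their highest 5' UTR share, 19.6% (9.82 to 33.1), and also the highest over all peaks, 14%.

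**Figure D4:**
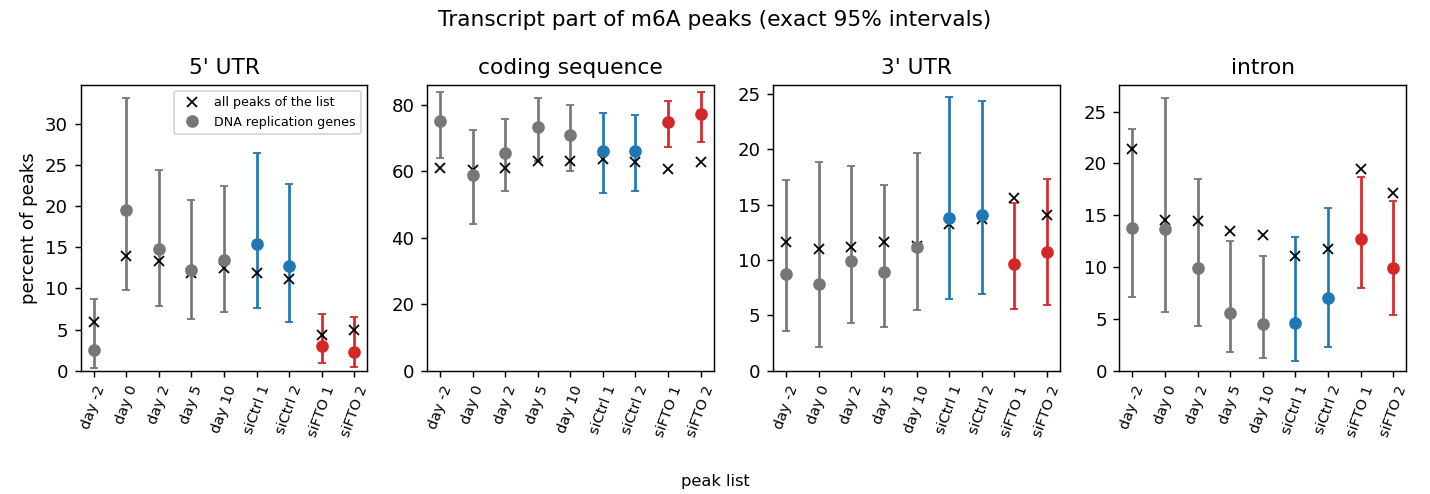
Each panel gives, for 1 transcript part, the percent of peaks in that part in each of the 9 lists, with points and exact 95% intervals for DNA replication genes and crosses for all peaks of the list. In the siFTO lists 5' UTR shares are 3.01% and 2.29%, and coding shares, at 74.7% and 77.1%, lie above the crosses.

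Regions present in all 9 lists numbered 13 on 10 genes, or 5.53% of the regions of the replication genes, where 10.8% of all regions were in every list. The best ranked was a region of Pole3, a histone-fold subunit of polymerase epsilon, at chromosome 4, 62523801 to 62524125. Each of the 9 lists held a 3' UTR peak and a coding peak there. The 3' UTR peaks went from folds of 3.44 and 3.89 (siCtrl, percentiles 50 and 56.3) to 16.63 and 18.25 (siFTO, percentiles 88.1 and 90.0). The 3' UTR peak of day -2 had a fold of 24.62. The coding peaks moved the same way, from percentiles 31.5 and 37.8 (siCtrl) to 84.4 and 88.2 (siFTO). A coding region of Fen1 at chromosome 19, 10199851 to 10200125, moved from percentiles 51.1 and 37.4 in siCtrl to 84.3 and 85.4 in siFTO. A second Fen1 region nearby, at 10200339 to 10200825, went the other way, from 74.0 and 67.2 to 40.7 and 31.0. A coding region of Lig1 at chromosome 7, 13285251 to 13285400, moved from percentiles 47.1 and 36.5 in siCtrl to 73.1 and 76.4 in siFTO. For these named regions, the best of the 13 by fold rank, the siRNA groups did not overlap. Over the 13 regions the median percentiles did, at 47.1 and 35.9 in siCtrl and 45.6 and 43.5 in siFTO. Over all regions present in every list the medians were 64.8 and 65.4 in siCtrl and 55.9 and 58.5 in siFTO. The share of such regions without overlap was not counted.

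On day -2 the replication genes differed from the rest of differentiation, and so did the list as a whole. Over all genes, 5.9% of day -2 peaks lay in 5' UTRs, against 11.9% to 14% on later days. Intronic peaks made up 21.4%, against 13.1% to 14.5%. The siFTO lists, over all genes, also had few 5' UTR peaks (4.33% and 5.01%) and many intronic ones (19.5% and 17.1%). In siCtrl these shares were 11.9% and 11.2%, and 11.1% and 11.7%. The cause of this likeness of day -2 and siFTO was not tested. From day -2 to day 0, 8 of 38 replication genes lost at least 2 peaks and at least 50% of them (21.1%, against 12.7% of all genes). They were Cdc45, Dbf4, Orc4, Orc5, Pola1, Rfc1, Top1 and Top2a. At least 2 more peaks and at least 2 times as many on day 0 were found on Mcm2, Mcm3 and Rfc2 (7.89% against 28.3%). Each stage has 1 list, so these counts carry no test. With equal list lengths 0 of 37 genes had more peaks on day 0 (19.2% of all genes), and 11 had fewer (22%). With peaks at or above the median fold 1 of 23 had more (28% of all genes), and 6 had fewer (15.2%). A peak on day -2 and on no later day was found for Mcm8, Orc1, Orc2, Orc3, Orc4, Pola1 and Rfc4, 14.9% of the 47 genes and 8.54% of all genes. Single day -2 peaks of very high rank included a coding peak of Top2b with a fold of 339.4 and an intronic peak of Cdc45 with 333.07. Both lay at percentile 99.4 of that list, and no other list held them.

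From day 0 to day 2, 10 of 32 genes had at least 2 more peaks and at least 2 times as many (31.2%, against 9.22% of all genes), and 0 had fewer by the same rule (4.88% of all genes). These were Cdc7, Fen1, Mcm5, Mcm7, Mcm9, Orc6, Pcna, Pold2, Rrm2 and Top2a. Rrm2, the regulated subunit of ribonucleotide reductase, had 0, 1, 4, 3 and 2 peaks on the stages in order. Mcm7 had none on day 0, 3 on day 2 and then 1 and 2. From day 2 to day 5, 6 of 35 genes had more (17.1% against 9.08%), Cdc45, Lig1, Pold3, Pole, Rfc1 and Top2a. Mcm7, Orc6, Pcna and Pold2 had fewer (11.4% against 5.78%). From day 5 to day 10, Gins3, Mcm3 and Pold2 had more (8.57% against 6.39%) and Cdc45, Mcm9, Pole and Top2a fewer (11.4% against 3.94%). Over the whole course from day 0 to day 10, 7 of 34 genes had more peaks (20.6% against 12.5%): Fen1, Gins3, Mcm3, Mcm5, Mcm7, Pold2 and Pold3. None had fewer (2.3% of all genes), and with equal list lengths 1 of 25 had (7.28% of all genes).

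Regions gained in siFTO were placed on the stage lists. Of the 52 gained regions of the replication genes, 22 were also on day -2, or 42.3%, and the lists of days 0, 2, 5 and 10 held 3, 6, 13 and 7. Gained regions of all genes gave 36.2% for day -2 and 11.3% to 18.3% for the later days. No stage list held 21 of the 52, and none held 50.6% of the gained regions of all genes. Of the 8 gained genes, 6 had a peak on day -2 and 1, Mcm10, on day 0, where 556 and 280 of all 992 gained genes did. These counts are by gene and not by position. The day -2 peaks of Mcm10 and Orc4 lay in regions that siFTO also held. Those of Cdc45, Mcm8, Orc1 and Orc3 lay in regions that neither siFTO list held. The 7 lost regions were in the day -2 list in 2 cases (28.6%, against 15.5% of all lost regions) and in the day 10 list in 6 (85.7% against 77%).

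**Figure D5:**
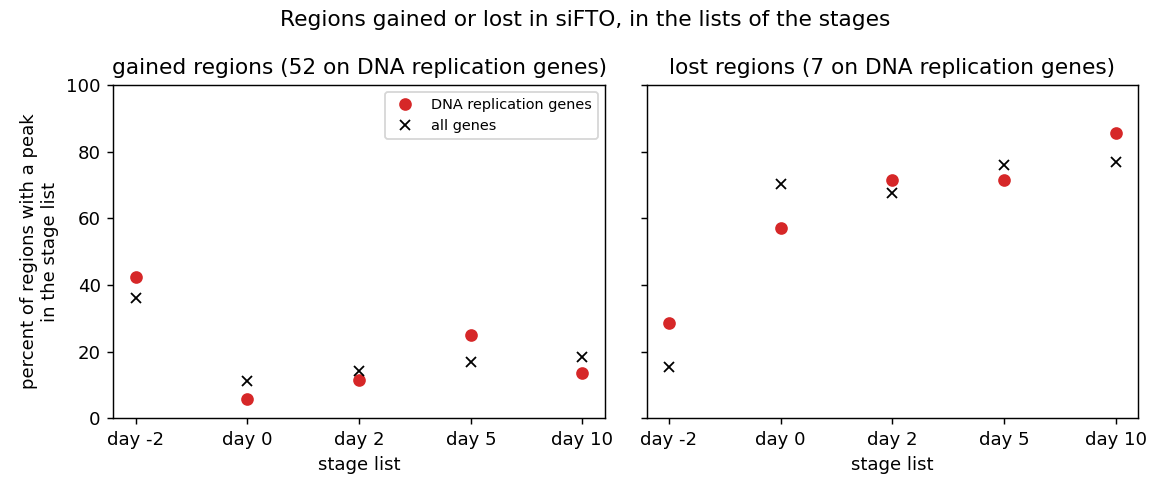
The panels give the percent of regions gained (left, 52 regions) or lost (right, 7 regions) in siFTO that also have a peak in each stage list, for DNA replication genes (red points) and for all genes (crosses). Gained regions of replication genes are most often found on day -2, at 42.3% against 5.77% on day 0, and those of all genes at 36.2% against 11.3%.

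Other replication genes, listed separately from the 47, were also called more often towards more peaks. Of 37 with a peak in the siRNA lists, 17 had more peaks in siFTO and 3 fewer (21.6% and 24.1% of all genes), and 4 were gained and 0 lost (8.64% and 4.35%). Examples in alphabetical order are Atad5, which unloads the clamp, with 0 and 0 against 8 and 6 peaks, and the chromatin assembly subunits Chaf1a with 8 and 8 against 12 and 10 and Chaf1b with 1 and 1 against 5 and 4. Chtf18 had 1 and 1 against 3 and 2, the checkpoint adaptor Clspn 7 and 7 against 17 and 13, and Dnmt1, which copies DNA methylation, 12 and 11 against 16 and 15. Those with fewer, named after their values were seen, were Mcmbp, Rnaseh2c and the nucleotide hydrolase Samhd1. Their 39 genes with a peak held 105 and 118 siCtrl peaks, 199 and 150 siFTO peaks, 104 on day -2 and 79 on day 0. As a sum, markers of dividing cells moved alongside, where the 8 genes held 23 and 18 siCtrl peaks and 46 and 36 siFTO peaks. On the stages they held 21, 7, 11, 28 and 14. Most of these peaks in each list lay on Mki67 alone, with 17 and 14 against 32 and 22. Of the 7 markers with a peak in the siRNA lists, 4 had more peaks in siFTO (21.6% of all genes did). Bub1, Ccnb1, Ccnb2, Cdk1 and Plk1 were at 0 in both siCtrl lists. In siFTO, Cdk1 had 1 and 2 peaks, Bub1 and Ccnb1 had 1 and 0, Ccnb2 had 0 and 1, and Plk1 had none. The part of cell division in the result was not tested.

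Some promoter letters, which the selection did not use, were more frequent in the replication genes than in all genes with a peak. A window from 250 bases before to 50 after each RefSeq start of a gene was searched on both strands. A window's start can differ from the start of the gene's RefSeq span. The E2F-like sites searched were TTTGGCGC, TTTCCCGC, TTTCGCGC and TTTGCCGC, which may overlap one another. Of the 42 replication genes with a peak and a window, 15 held a site (35.7%), against 4.69% of all genes with a peak. Cdt1 and Rfc3, which have no peak, also held one. Sites were in 12 of the 24 genes with more peaks in siFTO and in 3 of the 18 other genes with a peak. The letters CCAAT were in 61.9% of the 42 genes and in 43.2% of all genes with a peak. A match describes the letters and not a bound factor. The stretches below give the 170 bases before the start on the gene's strand (RefSeq, GRCm38.p6), for genes with more peaks in siFTO that hold a site there and for Mcm6, whose start region was lost. Capitals mark the sites.
Orc1 (chr4:108579284-108579453, plus strand): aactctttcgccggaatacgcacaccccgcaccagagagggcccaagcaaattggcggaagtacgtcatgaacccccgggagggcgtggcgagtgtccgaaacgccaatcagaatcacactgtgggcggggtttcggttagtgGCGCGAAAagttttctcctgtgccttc
Orc3 (chr4:34614943-34615112, minus strand): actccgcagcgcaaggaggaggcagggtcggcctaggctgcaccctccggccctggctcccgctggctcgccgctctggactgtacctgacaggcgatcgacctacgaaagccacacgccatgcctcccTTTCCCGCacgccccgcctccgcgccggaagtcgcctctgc
Cdc6 (chr11:98907981-98908150, plus strand): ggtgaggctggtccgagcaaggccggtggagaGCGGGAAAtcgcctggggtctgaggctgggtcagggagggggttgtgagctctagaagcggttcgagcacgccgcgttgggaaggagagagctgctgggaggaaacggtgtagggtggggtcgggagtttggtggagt
Mcm5 (chr8:75109339-75109508, plus strand): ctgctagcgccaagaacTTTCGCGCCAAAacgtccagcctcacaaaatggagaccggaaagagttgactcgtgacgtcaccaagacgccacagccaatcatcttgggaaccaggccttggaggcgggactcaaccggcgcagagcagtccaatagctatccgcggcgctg
Mcm7 (chr5:138171884-138172053, minus strand): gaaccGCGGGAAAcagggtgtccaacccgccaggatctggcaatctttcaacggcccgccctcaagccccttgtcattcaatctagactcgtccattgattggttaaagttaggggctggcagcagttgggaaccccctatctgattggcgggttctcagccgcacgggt
Gins3 (chr8:95633389-95633558, plus strand): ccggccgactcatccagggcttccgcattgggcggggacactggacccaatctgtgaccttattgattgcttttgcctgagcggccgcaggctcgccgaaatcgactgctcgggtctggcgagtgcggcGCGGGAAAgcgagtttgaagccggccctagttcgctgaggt
Pola1 (chrX:93632156-93632325, minus strand): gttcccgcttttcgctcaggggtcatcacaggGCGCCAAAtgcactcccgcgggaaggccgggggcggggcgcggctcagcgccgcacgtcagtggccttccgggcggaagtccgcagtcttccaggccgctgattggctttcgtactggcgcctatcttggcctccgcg
Mcm6 (chr1:128359706-128359875, minus strand): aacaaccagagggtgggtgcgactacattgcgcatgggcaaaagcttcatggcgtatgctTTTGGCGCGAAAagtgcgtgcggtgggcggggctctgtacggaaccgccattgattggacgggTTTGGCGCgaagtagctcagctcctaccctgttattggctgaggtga

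Peaks of several genes reached these start windows. Only the Orc1 peak was searched for m6A letters, and the others were not. The Orc1 5' UTR peak at chromosome 4, 108579476 to 108579575, was in both siFTO lists and no other list, with folds of 5.56 and 7.66. In the gene's RefSeq span, which begins earlier than the window's start, the peak lies from 3.771 kb. Its first 28 bases, bases 23 to 50 counted from the window's start at 108579454, open on the letters GGACT (capitals). These letters fit the known m6A consensus.
Orc1 (chr4:108579476-108579503, plus strand): gGGACTacgtgttgtagccgtggtctcc
The same letters were in these 28 positions in 3.1% of all 32851 windows on the gene's strand and in 2.52% on the opposite strand. A peak of Pole4 was in all 9 lists across the starts of its windows, at 82652865 and 82652874 of chromosome 6. These starts lie inside the gene's RefSeq span. The peak was at 82652726 to 82652925 in siCtrl 1 and was listed by the authors as intronic. Its fold was 37.66, 38.5, 43.13 and 113.21 on days 0, 2, 5 and 10, at percentiles 92.8 to 98.3, and 2.31 on day -2, at percentile 17.4. In siFTO it stood at percentiles 21.2 and 23.5 and in siCtrl at 64.7 and 91.0. Mcm9 had a coding peak just after its start on days 0, 2, 5 and 10 alone, with folds of 40.8, 39.96, 48.91 and 45.97, all above percentile 93. The Rrm2 5' UTR peak, on days 2, 5 and 10, had folds of 7.24, 36.35 and 9.83.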

How the data were processed

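Each of the 9 deposited lists holds peaks of 1 IP and input pair, so replicates were not pooled. The authors mapped reads to mm10 using TopHat2 2.0.9 (per the submitters' processing notes), and the sources used here name no peak caller, threshold or depth scaling. The value per peak is an enrichment ratio computed by the authors, per the file headers, and was used only for ranks within a list. List names were matched to sample titles, and the first siCtrl and siFTO lists, which carry no number, are called replicate 1. Lines of mitochondrial genes, in which the columns are shifted and no ratio stands, were left out.

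Symbols were found for 12492 of 12634 gene IDs. Deposited starts count from 0 and are printed counting from 1. Of 824 peaks of these genes, 818 had their midpoint inside the RefSeq gene (GRCm38.p6). Peaks were joined into regions of 1 gene where they shared at least 1 base. Percentiles give the share of a list's peaks with an equal or lower fold. Python 3.11.15, pandas 2.3.3 and scipy 1.17.1 were used. Joining and counting were tested on simulated data. Peak numbers in full were given to genes that separated in siFTO, the 8 highest on average and those past the stage rule. Regions were named by the best of their worst fold percentiles in each class and role. The members and lists were chosen with earlier results of these data known. Lists were also compared at equal length, above the median fold, without introns, with adjoining peaks joined, and without each replicate. No genome was used, so m6A letters in coding peaks were not analysed here.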

Additional observations from a re-analysis of the deposited data

How the results depend on the processing

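Of 66 counts recomputed under an alternative, 50 were within 1.5 times the main count. Percents in brackets give the share of all genes or regions under the same setting. With peaks at or above the median fold, genes with more peaks in siFTO numbered 16 (22.8%) and lost genes 1 (8.39%). Gained regions numbered 33 (15%), lost regions 4 (17.2%) and genes with more peaks on day 0 than on day -2 numbered 1 (28%). With equal list lengths, genes with fewer peaks in siFTO numbered 0 (20.9%) and lost regions 4 (13.1%). Genes with more peaks on day 0 than on day -2 numbered 0 (19.2%), and genes with fewer on day 10 than on day 0 numbered 1 (7.28%). Leaving out regions of the day -2 list, chosen after seeing the data, left 30 gained regions (12.1%). Leaving out 1 siRNA list gave 25 to 37 genes with more peaks (23.6% to 42.5%) and 1 to 4 with fewer (26.8% to 38.9%). The 37 genes and the 42.5% of all genes both came without siFTO replicate 2. Gained genes were 8 to 13 (9.68% to 16.2%) and lost genes 0 to 2 (4.88% to 9.12%). Gained regions were 53 to 101 (13.5% to 31.9%) and lost regions 8 to 9 (17.4% to 22.5%). With equal list lengths 20 of the 25 genes kept more peaks in siFTO, and 6 others were called. Without intronic peaks, 23 of the 25 genes kept more peaks in siFTO, and with adjoining peaks joined 24 did. No paired analysis was possible because the labels number only the second replicate of each siRNA group, so the groups share fewer than 2 numbers. The cause of these shifts was not tested. Depth is unknown, so a missing peak is not evidence of a missing mark.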
